A study of Mus musculus with 2 samples.

Results

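The integrins and tetraspanins of the array are 52 genes, 25 integrin subunits and 27 tetraspanins, carried by 97 probes. They were chosen by gene name out of 41174 probes under 27962 gene names, with earlier results of these data known. The choice took every non-control probe named for an Itga or Itgb subunit or a numbered Tspan gene. Probes of Cd9, Cd37, Cd53, Cd63, Cd81, Cd82 and Cd151 were also taken. The study set the RNA of adipocyte-derived microvesicles (ADMs), small membrane particles shed into the medium, against the RNA of the donor cells. These donors were adipocytes of 3T3-L1, a preadipocyte line from mouse, grown with 10% FCS and differentiated with IBMX (0.5 mM), dexamethasone (0.25 µM) and insulin (10 µg/ml). On day 11 ADMs were spun from the conditioned medium by ultracentrifugation, and Trizol was used on both ADMs and cells. From each RNA, 250 ng was labelled and hybridised as a pair on 2 Agilent 2-colour arrays, 1 per replicate. The ADM RNA carried Cy5 in replicate 1 and Cy3 in replicate 2. Every direction follows the dyes named in the labels. The labels call the replicates biological, but nothing says that they came from separate cultures, so the p-values measure the spread between these 2 arrays.

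Integrins are heterodimers of an alpha and a beta subunit that bind matrix proteins or counter-receptors on other cells and link them to the actin cytoskeleton. The alpha subunit largely sets the ligand, and the beta subunit carries most of the contacts with cytoskeletal adaptors. Tetraspanins are small proteins that cross the membrane repeatedly and gather integrins, proteases and each other into membrane patches, and several of them serve as protein markers of extracellular vesicles. The arrays measured their RNA, not the proteins on the vesicle surface.

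Each ratio below is ADM over cell RNA on the log2 scale, after background correction and loess, which sets a probe against probes of similar brightness on the same array. The net signal, the mean spot intensity minus the median local background, differed widely between the RNAs. The median over the 18117 probes tested was 545 scanner units for ADM RNA and 17.3 for cell RNA in replicate 1, and 208 and 36.4 in replicate 2. Most probes were therefore brighter in the ADM RNA in net signal, and a loess ratio below 0 does not mean that the ADM signal was the lower one. The ratios of the arrays correlated at r = 0.926 across all probes tested and at 0.966 across the 45 member probes, whose genes are not independent replicates. Of 9 adipocyte marker genes, 6 were well above background in ADM RNA on both arrays and 5 in cell RNA. Adipoq, Cfd and Cidec lacked a usable value on at least 1 array because their spots were left out for an outlying local background. None of 5 endothelial markers was well above background in either RNA, and of 10 leukocyte markers 1 was in ADM RNA and 2 in cell RNA.

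More of these genes were measurable in ADM RNA than in cell RNA. A gene counted as measurable where a probe was well above background, by the scanner's flag, on both arrays. This held for 30 of the 52 genes in ADM RNA, against 43.6% of all gene names, and for 17 in cell RNA, against 26.7%. Both RNAs reached it for 14 genes, against 24.1% of all gene names, ADM RNA alone for 16, against 19.5%, and cell RNA alone for 3 (Cd37, Itga4 and Itgb8), against 2.64%. The remaining 19 genes reached it in neither, against 53.8%, but 4 of these (Cd63, Cd82, Tspan12 and Tspan31) were bright in replicate 2 and lacked a value in replicate 1. On replicate 2 alone, the cell RNA count was 31 in place of 17.

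Of the 97 member probes, 45 probes of 33 genes passed that flag on both arrays in at least 1 RNA and were tested. In limma, with Benjamini-Hochberg adjustment over all probes tested and a threshold of 0.05, 9 were higher in ADM RNA and 6 lower, and 30 did not pass. Across all probes 5.53% were higher and 10.9% lower. The tetraspanins held 7 of the 9 higher probes and 1 of the 6 lower ones among 19 tested, and the integrins held 2 and 5 among 26 tested. The median log2 ratio of the member probes was 0.13, and that of all probes tested was 0.07. On replicate 1 alone the member median was 0.03. No member probe passed when spots with an outlying local background were kept (limma, adjusted p = 0.547 for each of these 15, 1 member probe higher and 2 lower at an unadjusted p under 0.05), a setting in which 0 of all probes passed.

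**Figure D1:**
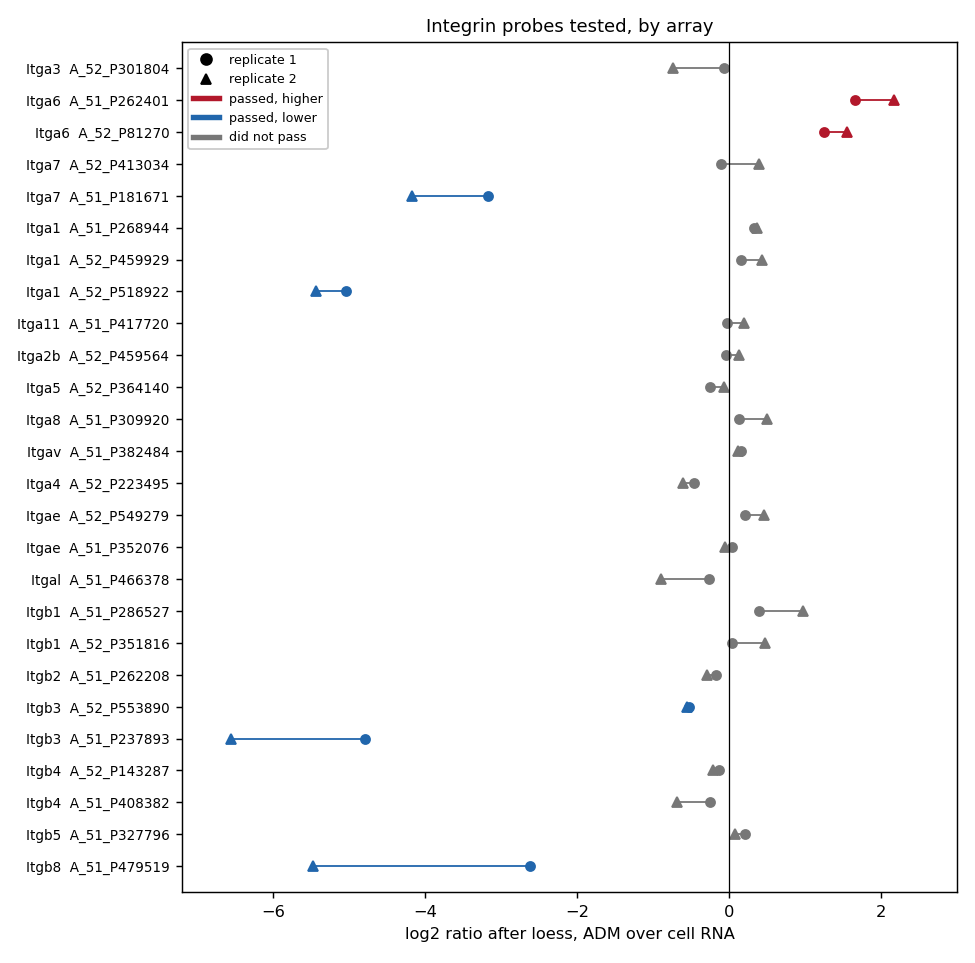
The log2 ratio (ADM over cell RNA, after loess) of the 26 integrin probes tested, in replicate 1 (circles) and replicate 2 (triangles), coloured by whether the probe passed in limma. Both Itga6 probes lie above 1 on both arrays, and 1 probe each of Itga7, Itga1, Itgb3 and Itgb8 lies below -2. The probe A_52_P553890 of Itgb3, also called lower, turned positive with median centring.

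Among the laminin-binding alpha subunits, Itga6 rose and 1 of the Itga7 probes fell. Of 5 probes tested 2 were higher, against 5.53% of all probes, and 1 lower, against 10.9%. Itga6 pairs with Itgb1 or Itgb4 to form laminin receptors. Its probe A_51_P262401 (chromosome 2, 71701626 to 71701685, mouse build mm7) gave net signals of 13637 in ADM RNA against 34.2 in cell RNA in replicate 1, and of 5000 against 87.9 in replicate 2. Its ratio was 1.65 and 2.17 in the replicates, a mean of 1.91 ± 0.36 (SD, n = 2, limma adjusted p = 0.0145). The probe A_52_P81270, which lies 1.78 kb closer to the 5′ end of the gene, gave 1.24 and 1.54, a mean of 1.39 ± 0.21 (n = 2, limma adjusted p = 0.0159). Both arrays and both probes of Itga6 thus stood on the same side, and both probes kept that side under each way of scaling that was tried, although the first did not pass with a trended prior (limma adjusted p = 0.157). A further Itga6 probe was too dim to test. With loess, an offset of 50 and no trend in the prior, these 2 probes were the only integrin probes called higher.

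Itga7 encodes the laminin-binding alpha subunit best known from skeletal muscle. Its most 3′ probe, A_51_P181671 (chromosome 10, 128459702 to 128459760, mm7), gave net signals of 491 in ADM RNA against 186 in cell RNA in replicate 1, and of 215 against 691 in replicate 2. In net signal the RNAs thus changed order between the arrays. Its loess ratio was below 0 on both, at -3.18 and -4.18, a mean of -3.68 ± 0.71 (n = 2, limma adjusted p = 0.0108). Under median centring it was -0.46 and did not pass (limma adjusted p = 0.586). The other tested Itga7 probe, A_52_P413034, lies 4.14 kb further 5′ and had a ratio of 0.14 ± 0.35 (n = 2, limma adjusted p = 0.570), with a net cell signal of 14.8 and 12.8 that was not well above background. It passed as higher with median centring (2.03, limma adjusted p = 0.00752, where the median of all probes tested was 2.04) and with the scanner's processed signals (2.20, limma adjusted p = 0.0188). Of 6 muscle markers, 2 were well above background in ADM RNA and 1 in cell RNA, and their part in the Itga7 values was not tested. Itga3, a further laminin-binding subunit, had a ratio of -0.40 ± 0.47 (n = 2) and did not pass.

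Of the collagen-binding alpha subunits, Itga1 was lower at 1 probe, and its other tested probes did not pass. Itga1 pairs with Itgb1 and prefers basement membrane collagen. The probe A_52_P518922 (chromosome 13, 112202968 to 112207106, mm7) gave 57.4 in ADM RNA against 326 in cell RNA in replicate 1, and 19.3 against 632 in replicate 2. The cell RNA was brighter on both arrays, and the ADM signal was well above background on 1 of them. The ratio was -5.04 and -5.44, a mean of -5.24 ± 0.28 (n = 2, limma adjusted p = 0.00135), and it stayed below 0 with median centring (-2.80). The mapped interval spans 4139 bases for a probe of 60 bases, so its sequence is not contiguous in that genome build. The same holds for the Itga1 probe A_52_P459929, which spans 1655 bases. Nearer the 3′ end, the probes A_51_P268944 and A_52_P459929 gave 0.34 ± 0.03 and 0.29 ± 0.20 (n = 2 each, limma adjusted p = 0.114 and 0.202). Both passed the background flag in ADM RNA on each array and in cell RNA on neither. With the scanner's processed signals they stood at 2.11 and 2.70 and passed as higher (limma adjusted p = 0.0203 and 0.0240). Both also passed with a trended prior, and the first passed with an offset of 10 (1.00, limma adjusted p = 0.0236). When the median of a gene's probes stood for the gene, Itga1 was at 0.25 and did not pass. Itga11, a receptor of fibrillar collagen, had a ratio of 0.08 ± 0.16 (n = 2), and Itga2 and Itga10 were too dim to test.

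None of the 4 probes tested for alpha subunits that recognise the RGD motif of matrix proteins passed. Itgav, the shared partner of Itgb3, Itgb5 and Itgb8, gave net signals of 371 and 143 in ADM RNA against 8.52 and 16.3 in cell RNA. Its ratio was 0.13 ± 0.02 (n = 2, limma adjusted p = 0.435), and it passed as higher with median centring (1.82, limma adjusted p = 0.0173) and with the scanner's processed signals (2.45, limma adjusted p = 0.0366). Itga5, the fibronectin receptor subunit, had net signals of 196 and 85.0 against 16.0 and 16.9. Its ratio of -0.16 ± 0.14 (n = 2, limma adjusted p = 0.384) turned positive with median centring (1.1) and with the scanner's processed signals (0.78). The median of all probes tested was 2.04 with median centring, above Itgav and Itga5, and 0.69 with the processed signals. Neither gene was well above background in cell RNA on either array, so its cell level was not measured. Itga8 and Itga2b were in the same position, with ratios of 0.31 and 0.04.

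None of the 4 probes tested for the alpha subunits of leukocyte and lymphoid adhesion passed. Of the 6 probes of Itga4, which pairs with Itgb1 or Itgb7 to bind the vascular adhesion molecule VCAM1, only A_52_P223495 was tested. It was well above background in cell RNA on both arrays (net signals of 19.6 and 29.0) and in ADM RNA on neither (10.3 and 7.35). Its ratio was -0.54 ± 0.11 (n = 2, limma adjusted p = 0.0550). The other Itga4 probes were too dim to test or lacked a value on 1 array. Itgam, the alpha subunit of the macrophage integrin, was not well above background in either RNA at either of its probes. Itgae and Itgal, of intraepithelial and circulating lymphocytes, had ratios between -0.58 and 0.34 at 3 probes, and none passed.

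The beta subunits held 3 lower probes, of 2 genes, and no higher one among 9 tested. Of all probes tested 10.9% were lower and 5.53% higher. Itgb3 pairs with Itgav on many cells and with Itga2b on platelets. Its probe A_51_P237893 (chromosome 11, 104776217 to 104776287, mm7) gave 161 in ADM RNA against 327 in cell RNA in replicate 1, and 45.4 against 1464 in replicate 2. The cell RNA was brighter on both arrays, by a wider margin on the second. The ratio was -4.79 and -6.56, a mean of -5.68 ± 1.25 (n = 2, limma adjusted p = 0.0128), against -2.69 under median centring. The other Itgb3 probe, A_52_P553890, lies 3.18 kb closer to the 3′ end and gave 977 and 381 in ADM RNA against 36.8 and 76.0 in cell RNA. Its loess ratio was -0.53 and -0.55, a mean of -0.54 ± 0.02 (n = 2, limma adjusted p = 0.0491), which turned to 2.31 with median centring and did not pass with the scanner's processed signals (limma adjusted p = 0.0811). The probes of Itgb3 thus put different RNAs ahead in net signal on both arrays. Of 5 platelet and megakaryocyte markers, 1 was well above background in ADM RNA and a different 1 in cell RNA. Summed net signals were 106 and 77.0 in ADM RNA and 51.8 and 56.0 in cell RNA. Of their 2 tested probes 1 was lower, at -0.79, and the other, at 0.29, did not pass. The part of these markers in the Itgb3 values was not tested.

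Itgb8 pairs with Itgav and takes part in activating latent TGF-beta. Its probe A_51_P479519 (chromosome 12, 116974578 to 116974637, mm7) gave 98.8 and 579 in cell RNA, and 13.2 and 5.02 in ADM RNA, where it was not well above background on either array. The ratio was -2.62 and -5.47, a mean of -4.04 ± 2.02 (n = 2, limma adjusted p = 0.0416). On the loess scale this mean put the cell RNA 16.5-fold higher. The fold rests on an ADM signal not well above background, and it covers neither the spread between arrays nor the choice of scaling. The ratio was -2.58 with median centring and -0.91 with outlying backgrounds kept. The arrays gave the same sign with a wide spread, and 2 other Itgb8 probes were too dim to test in either RNA and a further one lacked a value.

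The other beta subunits tested did not pass, and Itgb6 and Itgb7 were not tested. Itgb1, the partner of most matrix-binding alpha subunits, had net signals of 1748 and 688 in ADM RNA against 16.8 and 22.3 in cell RNA at A_51_P286527, with a ratio of 0.68 ± 0.41 (n = 2, limma adjusted p = 0.0825). Its more 5′ probe A_52_P351816 had a ratio of 0.25 ± 0.31 (n = 2). Both probes passed as higher with median centring (3.66 and 1.84), with the scanner's processed signals (2.05 and 3.60, limma adjusted p = 0.0227 and 0.0201) and with a trended prior. Itgb5, which with Itgav forms a vitronectin receptor, was bright in both RNAs, at 15630 and 5687 in ADM RNA and 144 and 549 in cell RNA. Its ratio was 0.14 ± 0.10 (n = 2, limma adjusted p = 0.431), and it passed as higher with median centring (4.46). Itgb2, the common beta subunit of leukocyte integrins, had a ratio of -0.24 ± 0.09 (n = 2, limma adjusted p = 0.222) that turned to 1.05 with median centring. That setting put the median of all probes tested at 2.04, above Itgb2 and above A_52_P351816 of Itgb1. The cell signal of Itgb2 was well above background on 1 array.

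**Figure D2:**
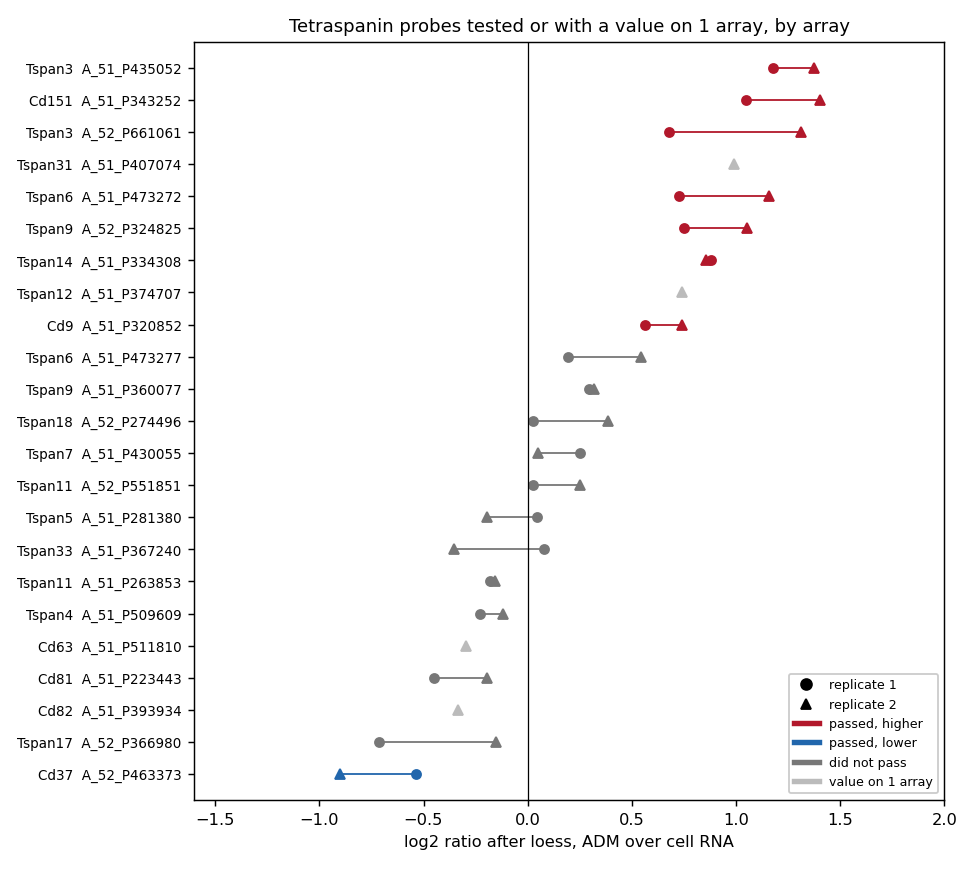
The log2 ratio (ADM over cell RNA, after loess) of the tetraspanin probes tested and of 4 probes with a value in replicate 2 only, in replicate 1 (circles) and replicate 2 (triangles), coloured by the limma call. The 7 probes called higher, of Tspan3, Cd151, Tspan6, Tspan9, Tspan14 and Cd9, lie above 0.5 on both arrays and stayed positive under each scaling, and Cd37 is the single probe called lower.

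Of 5 tetraspanins grouped here under extracellular vesicles (Cd9, Cd63, Cd81, Cd82 and Cd151), 3 were tested. Cd151 and Cd9 rose and Cd81 did not pass, 2 higher of 3, against 5.53% of all probes tested. Cd151, which binds the laminin-binding integrins directly, gave 50765 in ADM RNA against 180 in cell RNA in replicate 1 at A_51_P343252 (chromosome 7, 137888602 to 137888662, mm7), and 18478 against 641 in replicate 2. Its ratio was 1.05 and 1.40, a mean of 1.23 ± 0.25 (n = 2, limma adjusted p = 0.0216). Cd9, which takes part in membrane fusion, gave 10382 against 80.1 and 3763 against 225 at A_51_P320852 (chromosome 6, 125482335 to 125482394, mm7). Its ratio was 0.56 and 0.74, a mean of 0.65 ± 0.12 (n = 2, limma adjusted p = 0.0415), and it did not pass with the scanner's processed signals (limma adjusted p = 0.0645) or with an offset of 10 (limma adjusted p = 0.0528). Both genes lay above 0 on both arrays.

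Cd81 did not pass, and Cd63 and Cd82 could not be tested, since each lacked a value on 1 array. Cd81, part of the B cell co-receptor, gave 38465 in ADM RNA against 390 in cell RNA, and 13700 against 1451 in replicate 2. Its ratio was -0.32 ± 0.18 (n = 2, limma adjusted p = 0.163), and it turned to 4.49 with median centring and to 0.10 with the scanner's processed signals. Cd63, a tetraspanin of late endosomes and lysosomes, had a ratio of -0.30 in replicate 2 (net signals of 28352 and 2945) and no value in replicate 1. With all spots of outlying local background kept on both arrays, which refits both, its ratios were -0.58 and -0.71. Cd82, known as a suppressor of metastasis, had -0.33 in replicate 2 (net signals of 1319 and 188), and 0.03 and 0.05 in that setting.

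Among the tetraspanins of leukocytes, Cd37, found mainly on B cells, was called lower near background. The probe A_52_P463373 gave 21.7 and 38.0 in cell RNA against 13.5 and 8.30 in ADM RNA, where it was not well above background. Its ratio was -0.54 and -0.90, a mean of -0.72 ± 0.26 (n = 2, limma adjusted p = 0.0482). As for Itgb8, the fold on the loess scale, 1.65 higher in cell RNA, rests on an ADM signal not well above background. The ratio was -0.06 with outlying backgrounds kept. The call was lost with median centring, where the ratio was -0.64, and when 1 probe a gene was tested (limma adjusted p = 0.0511). The other Cd37 probe, A_51_P350752, was too dim to test in either RNA, at 14.8 and 18.7 in ADM RNA and 8.16 and 9.66 in cell RNA. Of 10 leukocyte markers, 8 were not well above background in either RNA, with Ptprc and Cd79a among them, and summed net signals were 4480 and 1929 in ADM RNA and 312 and 656 in cell RNA. The part of leukocyte RNA in the Cd37 value was not tested. Cd53, a pan-leukocyte tetraspanin, was not well above background.

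The TspanC8 tetraspanins, which escort the protease ADAM10 to the cell surface, had 1 higher probe of 4 tested, against 5.53% of all probes. Tspan14 gave 6538 in ADM RNA against 37.8 in cell RNA in replicate 1 at A_51_P334308 (chromosome 14, 38331123 to 38331182, mm7), and 2680 against 143 in replicate 2. Its ratio was 0.88 and 0.86, a mean of 0.87 ± 0.01 (n = 2, limma adjusted p = 0.0240). Tspan17, a member of the same group, was bright in both RNAs, at 30940 and 12856 in ADM RNA and 402 and 1333 in cell RNA. Its ratio was -0.43 ± 0.40 (n = 2, limma adjusted p = 0.177) and turned to 4.33 with median centring. Tspan5 and Tspan33 had ratios of -0.08 and -0.14 and did not pass.

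Of the other tetraspanins, 4 probes of 3 genes were higher among 11 tested, against 5.53% of all probes. None was lower, against 10.9%. Tspan3 had both of its tested probes called. A_51_P435052 (chromosome 9, 56163708 to 56163767, mm7) gave 20251 in ADM RNA against 82.8 in cell RNA, and 7158 against 262 in replicate 2. Its ratio was 1.18 and 1.37, a mean of 1.28 ± 0.14 (n = 2, limma adjusted p = 0.0156), and A_52_P661061, which lies 9.81 kb further 5′, had 0.99 ± 0.45 (n = 2, limma adjusted p = 0.0471). The second probe did not pass without the filter on dim probes (limma adjusted p = 0.0508).

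Tspan6 and Tspan9 were each called at the more 3′ of their tested probes. For Tspan6, A_51_P473272 (chromosome X, 128611050 to 128611109, mm7) gave 2858 against 16.8 and 1044 against 31.7, with a ratio of 0.94 ± 0.31 (n = 2, limma adjusted p = 0.0351), and the gene did not pass when the median of its probes was tested (0.65, limma adjusted p = 0.0614). Its probe 2.63 kb further 5′ had 0.37 ± 0.25 (n = 2, limma adjusted p = 0.156) and passed with median centring (3.48) and a trended prior. For Tspan9, a tetraspanin abundant on platelets, A_52_P324825 (chromosome 6, 127984705 to 127984764, mm7) gave 11633 against 74.8 and 4693 against 220, with a ratio of 0.90 ± 0.21 (n = 2, limma adjusted p = 0.0299). Its other probe had 0.31 ± 0.02 (n = 2, limma adjusted p = 0.138) and passed with the scanner's processed signals (2.92, limma adjusted p = 0.0224), an offset of 10 (0.89) and a trended prior. Each of these other probes had the sign of the passed one on both arrays.

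Tspan4, which drives the formation of migrasomes, membrane bodies left behind by migrating cells, was bright in both RNAs at 28549 and 10465 in ADM RNA and 284 and 1088 in cell RNA. Its ratio was -0.17 ± 0.07 (n = 2, limma adjusted p = 0.329), and it was above 0 with median centring (4.48), the processed signals (0.11) and an offset of 10 (0.0094). Tspan12, which acts in Norrin and Frizzled4 signalling, had 0.74 in replicate 2 alone, and 0.27 and 0.74 with all spots of outlying local background kept on both arrays. Tspan31 had 0.99 in replicate 2 alone, and 0.28 and 0.91 in that setting.

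**Figure D3:**
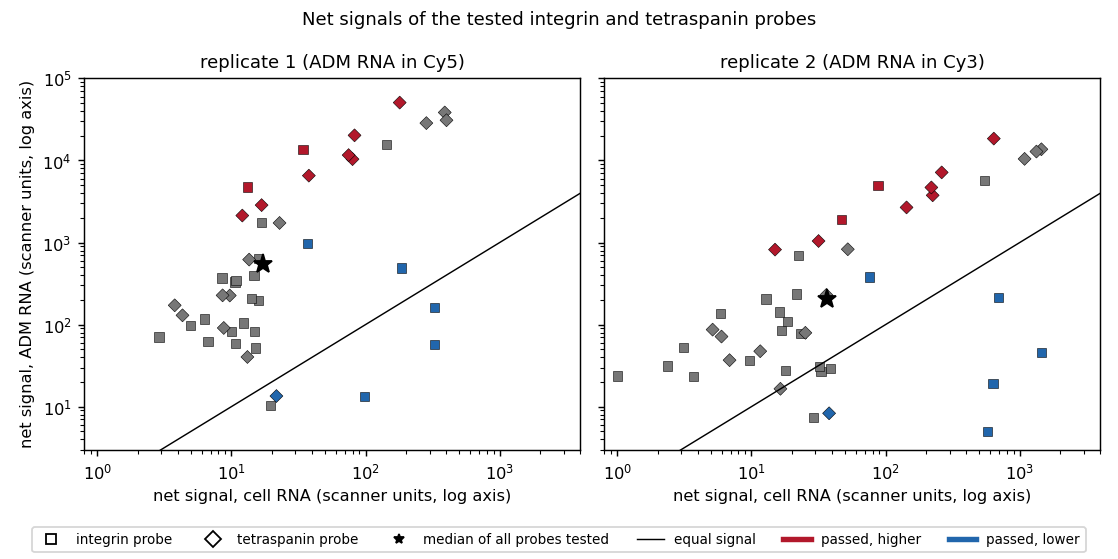
Net signal of the 45 tested member probes in ADM RNA (vertical) against cell RNA (horizontal), on log axes in scanner units, for each array, with the median of all probes tested as a star; the cell signal of Itga8 in replicate 2, 0.0492, is drawn at 1. Most probes lie above the line of equal signal, and probes of Itgb3, Itga1, Itgb8, Cd37 and Itga4 lie below it on both arrays.

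In net signal, before any scaling between the RNAs, 5 of the 45 tested member probes were brighter in cell RNA on both arrays, against 4.20% of all probes tested. They were the lower-called probes of Itga1, Itgb8 and Cd37, A_51_P237893 of Itgb3, and the Itga4 probe. The first 4 had passed as lower in limma. The other lower-called probes, of Itga7 and the second of Itgb3, were brighter in ADM RNA on 1 and on both arrays.

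**Figure D4:**
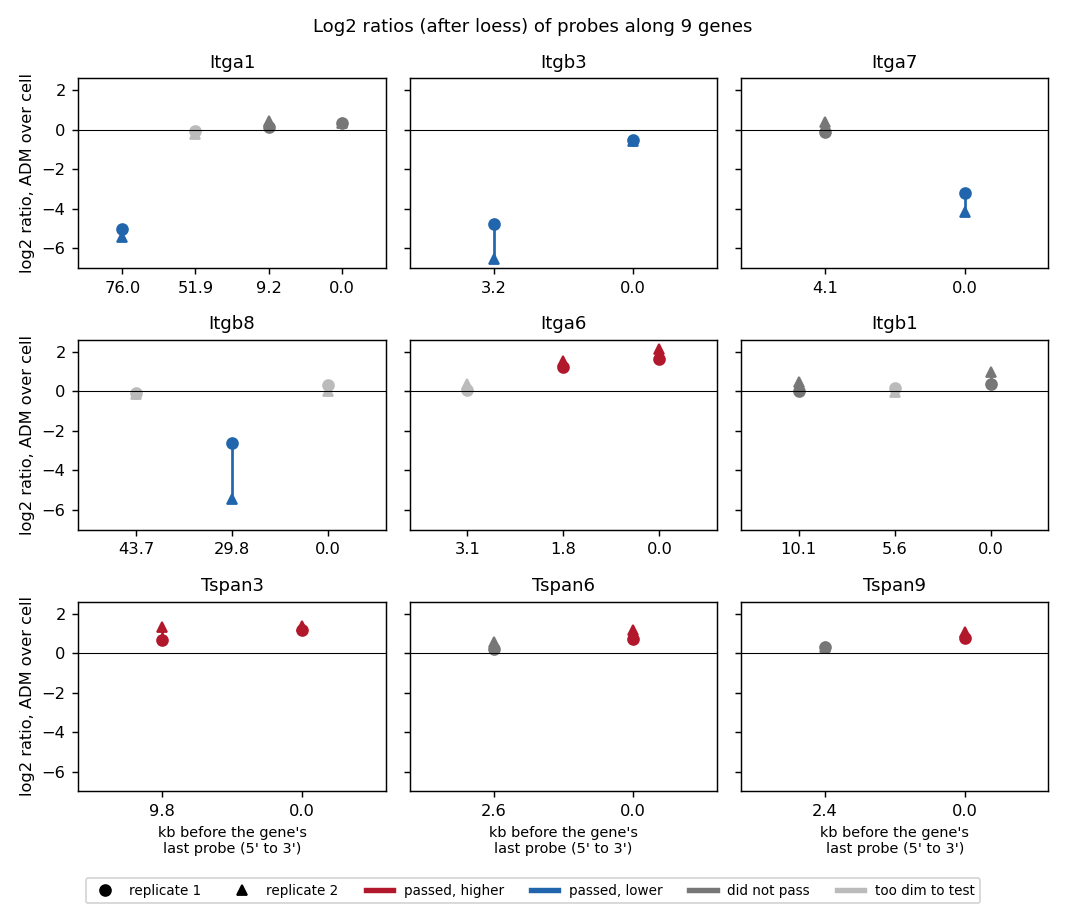
The log2 ratio (ADM over cell RNA, after loess) of each probe of 9 genes with a value on both arrays, also where it was too dim to test. Probes are ordered 5′ to 3′ by distance in kb before the gene's last probe, in replicate 1 (circles) and replicate 2 (triangles). Single probes of Itga1, Itgb3, Itga7 and Itgb8 lie far below the other probes drawn, which for Itgb8 were all too dim to test. The probes of Itga6, Tspan3, Tspan6 and Tspan9 that were tested lie above 0. With median centring the probe of Itgb3 drawn at 0.0 kb turned positive.

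Each of the 4 genes with a probe below -2 had it at 1 probe only, which for Itgb8 was the only probe tested. Of 11 member genes with at least 2 tested probes, 3 had probes whose ratios differed by 1 or more, Itga1 by 5.58, Itgb3 by 5.13 and Itga7 by 3.82. Over all 3997 such genes 12.2% did. The median difference was 0.52 for the member genes and 0.29 for all. The low probe was the more 5′ one in Itga1 and Itgb3 and the most 3′ one in Itga7. Among the 10 member genes with exactly 2 tested probes on 1 strand, the more 3′ probe had the higher ratio in 7, against 55.0% of 2979 genes. Whether the low probes read another transcript of their gene, or another RNA, was not tested.

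**Figure D5:**
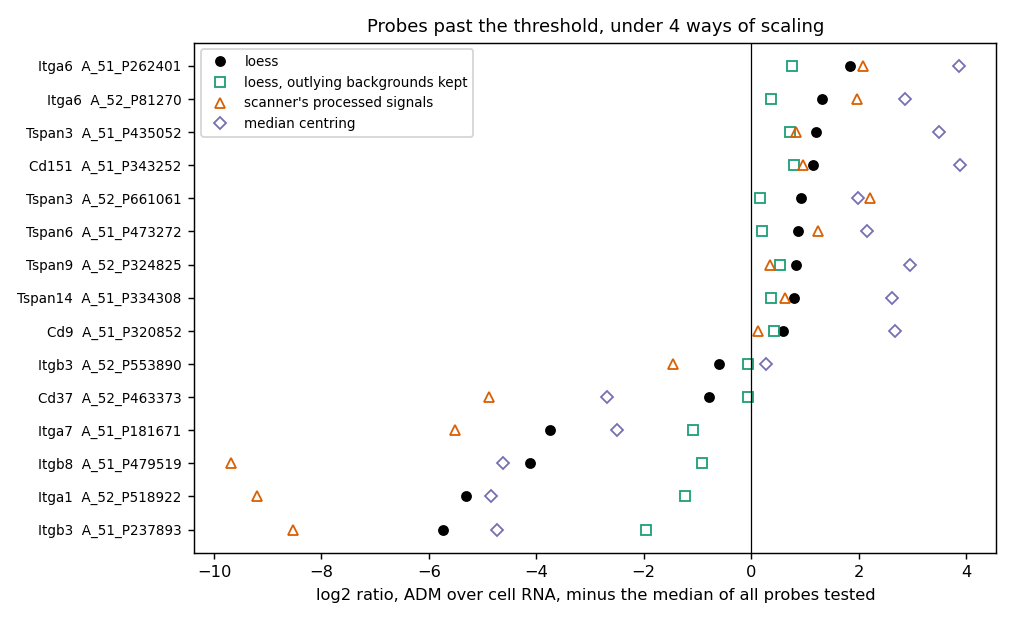
The log2 ratio (ADM over cell RNA) of the 15 member probes past the threshold, minus the median of all probes tested, under loess (filled circles), loess with outlying local backgrounds kept (squares), the scanner's processed signals (triangles) and median centring (diamonds). The 9 higher probes stay above 0 and 5 of the 6 lower ones below 0, while A_52_P553890 of Itgb3 is above 0 with median centring.

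The direction of the called probes was compared across scalings, since the RNAs differed in total signal. Loess with the outlying backgrounds left out put the median of all probes tested at 0.07, and median centring, which shifts all probes of an array alike, put it at 2.04. The calls over all probes were then 97.6% higher in place of 33.7%, and 69.3% with the scanner's processed signals. The member probes counted 22 higher and 3 lower with median centring, and 22 and 6 with the processed signals. Relative to the median of all probes, the 9 higher member probes stood 2.00 to 3.89 above it with median centring, Cd151 furthest, and 0.13 to 2.20 above it with the processed signals, Cd9 nearest. Cd9 thus came close to that median in the second setting. Median centring did not set the 9 apart from bright probes that had not passed. With it Cd81 stood 2.45 above the median, Tspan4 2.44, Itgb5 2.42 and Tspan17 2.29. With the processed signals these stood below it, at -0.59, -0.58, -0.50 and -0.77.

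In a list of 33 genes that act with integrins inside the cell, 52 probes were tested, of which 5 were higher, against 5.53% of all probes, and 6 lower, against 10.9%. The median ratio was 0.07, as for all probes tested. The highest 2 that passed were Flna, a crosslinker of actin that binds integrin beta tails (0.99 ± 0.44, n = 2, limma adjusted p = 0.0466), and Bcar1, an adaptor of focal adhesions (0.77 ± 0.14). The lowest 2 were another probe of Flna (-1.73 ± 0.68) and Enah, a regulator of actin filament growth (-1.67 ± 0.77). Both Flna calls stand for 1 gene with probes of opposite sign, of which the third had 0.73.

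In a list of 21 genes whose proteins associate with tetraspanins, 26 probes were tested. Of these, 5 were higher, against 5.53% of all probes, and 1 lower, against 10.9%. The median ratio was 0.29, against 0.07 for all probes tested. Bsg, a glycoprotein that induces matrix metalloproteinases, had 1.21 ± 0.35 (n = 2, limma adjusted p = 0.0274). Mmp14, a membrane-bound matrix protease, had 1.05 ± 0.25. Slc3a2, the CD98 heavy chain that binds integrin beta tails, was the lower one at -1.20 ± 0.25, but it stood at 3.48 with median centring.

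In a list of 31 integrin ligands, matrix proteins and counter-receptors on other cells among them, 30 probes were tested. Of these, 14 were higher and 2 lower, with a median of 0.43. Col4a1, a chain of basement membrane collagen, had 2.27 ± 0.35 (n = 2, limma adjusted p = 0.0104), and Postn, the matrix protein periostin, had 2.23 ± 0.41. Lamc1, a laminin chain, was lower at -1.37 ± 0.21, and Spp1, osteopontin, at -0.91 ± 0.21, and with median centring these stood at 3.26 and 2.94. Over all probes tested 5.53% were higher and 10.9% lower, with a median of 0.07, and the lists were not tested as sets.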

How the data were processed

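RNA of ADMs and donor 3T3-L1 adipocytes was measured on 2 arrays with the dyes exchanged. Per the file headers, the deposited mean spot intensity and median local background intensity came from Feature Extraction 10.5.1.1 with no normalization, and probe coordinates are those of mm7. Processed signals, also a deposited intensity, had been background-subtracted and dye-normalized. The deposited log10 ratio of the series table equalled the scanner's ratio in replicate 1 and its negative in replicate 2, and both columns have a median of 0. Spot flags and gene names (unit other) were used as deposited.

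Background was corrected with normexp (offset 50) and ratios by loess within each array (limma 3.58.1, R 4.3.3), turned to log2 ADM over cell from the deposited intensity values. Control spots had weight 0. Spots with an outlier flag, or with one on their local background (2322 in replicate 1, 1711 in replicate 2), were left out; this choice was made after earlier results of these data were seen. Spots of a probe were averaged. Probes were tested where, in either RNA, at least 50% of spots passed the scanner's well-above-background flag on each array. The mean of the arrays was tested against 0 with lmFit and eBayes, with 1 residual and 2.91 prior degrees of freedom and Benjamini-Hochberg adjustment. No member probe was saturated. The script was tested on simulated data. Accessions of 72 of the 97 member probes matched RefSeq (GRCm38.p6), all under the same symbol, and strand came from RefSeq or the gene's own probes.

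The members and gene lists were chosen with earlier results of these data known. Named genes were those with a probe past the threshold, the 10 with the highest mean signal in ADM RNA and the 5 in cell RNA, 14 set by name, and those whose probes differed by at least 1. Of the other lists at most 2 higher and 2 lower probes were named. Other members were named after their values were seen. The number of arrays limits the precision.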

Additional observations from a re-analysis of the deposited data

How the results depend on the processing

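The ratio within each array already uses the pairing of ADM and cell RNA, and no further block was possible with 1 group. A single array leaves no residual degrees of freedom, so leaving out a replicate gives values and no calls. The member median then ran from 0.03 to 0.11, and the count of member genes measurable in cell RNA from 17 to 31; it was 33 with the scanner's positive-and-significant flag. With outlying local backgrounds kept, 0 member probes were higher and 0 lower, as for all probes (677 at an unadjusted p under 0.05 in limma); the cause was not tested. With median centring 22 member probes were higher and 3 lower, and 10773 and 265 of all; its prior degrees of freedom were infinite, as with the trended prior, so those p-values do not reflect a probe's own spread. The scanner's processed signals and the deposited series table gave 22 higher member probes and 5798 of all. The trended prior gave 16 higher member probes, and 4532 higher and 3221 lower of all. An offset of 10 gave 1867 higher and 3063 lower of all. Taking each gene's median probe gave 3 lower members and 651 higher of all. In the order outlying backgrounds kept, median centring, processed signals or series table, and no filter, the medians were 0.0086, 1.38, 0.90 and 0.018 for the members, 0.0071, 2.46, 0.41 and 0.015 for the adhesion list, 0.033, 3.16, 1.64 and 0.13 for the tetraspanin partners, and 0.12, 3.46, 2.10 and 0.092 for the ligands. With an offset of 10 the partners were at 0.74 and the ligands at 0.78. With 1 probe a gene the member median turned to -0.011, the adhesion list was at 0.098 and the ligands at 0.75, and taking the median over probes of each gene put the members at 0.043 and the adhesion list at 0.11. Signs turned for Cd81 (4.49 centred, 0.10 processed), Itga5 (1.1 centred, 0.78 processed), Tspan4 (4.48 centred, 0.11 processed, 0.025 with backgrounds kept, 0.0094 with offset 10), Tspan17 (4.33 centred), Itgb2 (1.05 centred), A_52_P553890 of Itgb3 (2.31 centred), A_52_P518922 of Itga1 (0.25, median of probes) and A_52_P413034 of Itga7 (-0.11 and 0.39 on the single arrays). The centred values of Itga5 and Itgb2 lay below the median of all probes tested in that setting, 2.04. Dim cell signals limit the ratios of 16 genes measurable in ADM RNA alone.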
